A study of Mus musculus with 66 samples.

Results

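The nuclear genes of oxidative phosphorylation (OXPHOS) were followed through the depletion of 9 chromatin and transcription regulators in cultured mouse neurons. The set was chosen with earlier results of these data known. Its members were picked by gene symbol, as the Nduf, Sdh, Uqcr, Cox5 to Cox8 and Atp5 families and Cycs, with pseudogenes marked by their symbol left out. This gave 86 genes of 30021 in the table. By complex they were 40 of complex I, 4 of complex II, 8 of complex III, 1 for cytochrome c, 16 of complex IV and 17 of ATP synthase. After the filter on low counts 82 members could be tested, among 16084 genes in all. Those not tested were Cox8b, Cox8c, Ndufb11b and Ndufs6b, of which none had more than 14 counts in any library. The symbol rule leaves out the subunit genes Cox4i1, Ndufab1 and Cyc1, which were described separately. Ndufb4c, which was tested, and Ndufs6b are processed pseudogenes in the GENCODE gene models.

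The neurons came from wildtype mouse embryos (stage e16.5), cultured separately for males and females. Targets were lowered by lentiviral shRNA, a hairpin-shaped RNA that guides the breakdown of a matching mRNA. They were Med13l, Chd8, Tbr1, Setd5, Ash1l, Kmt2c, Kdm6b, Mbd5 and Dnmt3a. Control cultures received a nontargeting shRNA, and a further group no virus. Count columns headed Luc were taken as the nontargeting group, since no column carries that group's name. Virus was taken off on day 6 and RNA was collected by lysis on day 10, with doses meant to bring a target to about 50% of its level. Polyadenylated RNA was sequenced in 66 libraries, 3 for each of the 11 treatments in each sex. The protocol speaks of triplicate wells, and nothing in the labels ties the replicates to separate litters. The p-values measure the spread between replicate libraries, estimated over all groups and both sexes together, and this spread may be technical. Whether 1 or several hairpins were used per target is not given in the sources used here.

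Oxidative phosphorylation passes electrons from NADH through complex I, or from succinate through complex II, to ubiquinone, then through complex III and cytochrome c to oxygen at complex IV. The proton gradient that this builds drives ATP synthase. Most subunits are encoded in the nucleus and a small set in mitochondrial DNA, so the complexes are assembled from the products of both genomes. Neurons rely on this pathway for the ATP that ion pumping and synaptic transmission use.

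Library totals lay between 13582723 and 65864157 counts, and the members together took between 0.968% and 2.291% of them. Summed levels of 11 neuronal markers ranged from 5493 to 6295 CPM (read counts scaled to library size, so that every library has the same total) in the female and from 5738 to 5909 CPM in the male nontargeting libraries. The sum of 8 astrocyte markers was between 322 and 489 CPM and that of 8 microglia markers at most 2.75 CPM in the same libraries. All 18 knockdown groups had a lower mean of their target than the nontargeting group, at 22.4% to 54.6% of it. The difference did not pass edgeR's test in Kdm6b males (adjusted p = 0.093), Kdm6b females (adjusted p = 0.83) and Setd5 males (adjusted p = 0.42). Med13l was at 37.4% in males and 30.5% in females, and Chd8 at 30.8% and 35.4%. Single libraries with a less reduced target were the one labelled Setd5 shRNA male replicate 1, with 142 CPM of Setd5 against 43.0 and 43.1 CPM in the other two, and the one labelled Kdm6b shRNA male replicate 1, with 39.5 CPM of Kdm6b against 17.2 and 17.2 CPM and a nontargeting mean of 59.9. The library labelled Kdm6b shRNA female replicate 3 had 35.9 CPM against 10.8 and 21.3, with a nontargeting mean of 45.98. No member passed the test in the Setd5 males, Kdm6b males or Kdm6b females with or without those libraries.

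Levels were compared between genes as CPM per kilobase (kb) of the principal transcript, over the 6 nontargeting libraries of both sexes. Atp5b, the catalytic beta subunit of ATP synthase, had the highest level, with a median of 821 CPM per kb and a range from 806 to 853. Ndufa4, named after complex I but known to sit in complex IV, followed at 538 (414 to 874). Cox6b1 (476, from 370 to 612), Cox6a1 (464, from 346 to 519) and Cox8a (426.5, from 305 to 528) came next, and these neighbours overlapped in their ranges. Within complex III the level was highest for Uqcrh, the hinge protein, at 376.5 (295 to 650), and lowest for Uqcrq at 96.5 (57.5 to 109). Sdhb and Sdhc were at 151 and 34.8 CPM per kb in complex II, with ranges that did not overlap. Cytochrome c itself, Cycs, had 37.8 CPM per kb. After Ndufa4, Ndufb9 was the next complex I member at 198, and Ndufa4l2, a paralog of Ndufa4, was the lowest at 0.416. Subunit c of ATP synthase has 3 genes that encode the same mature protein, and of these Atp5g3 had 368, Atp5g2 40.2 and Atp5g1 37.4 CPM per kb.

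Isoforms of complex IV subunits that are known from heart and muscle or testis were low beside their widely expressed counterparts. Cox6a2 was at 22.9 CPM per kb, Cox7a1 at 2.61, Cox6b2 at 6.34 and Cox7b2 at 0.268, against 300 for Cox7a2 and 220 for Cox7b. Cox8b had a median of 0.147 CPM per kb with at most 9 counts in a library, and Cox8c was at 0 in all 6 nontargeting libraries. Cox7a2l, which helps complexes III and IV join into supercomplexes, had 101 CPM per kb.

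**Figure D1:**
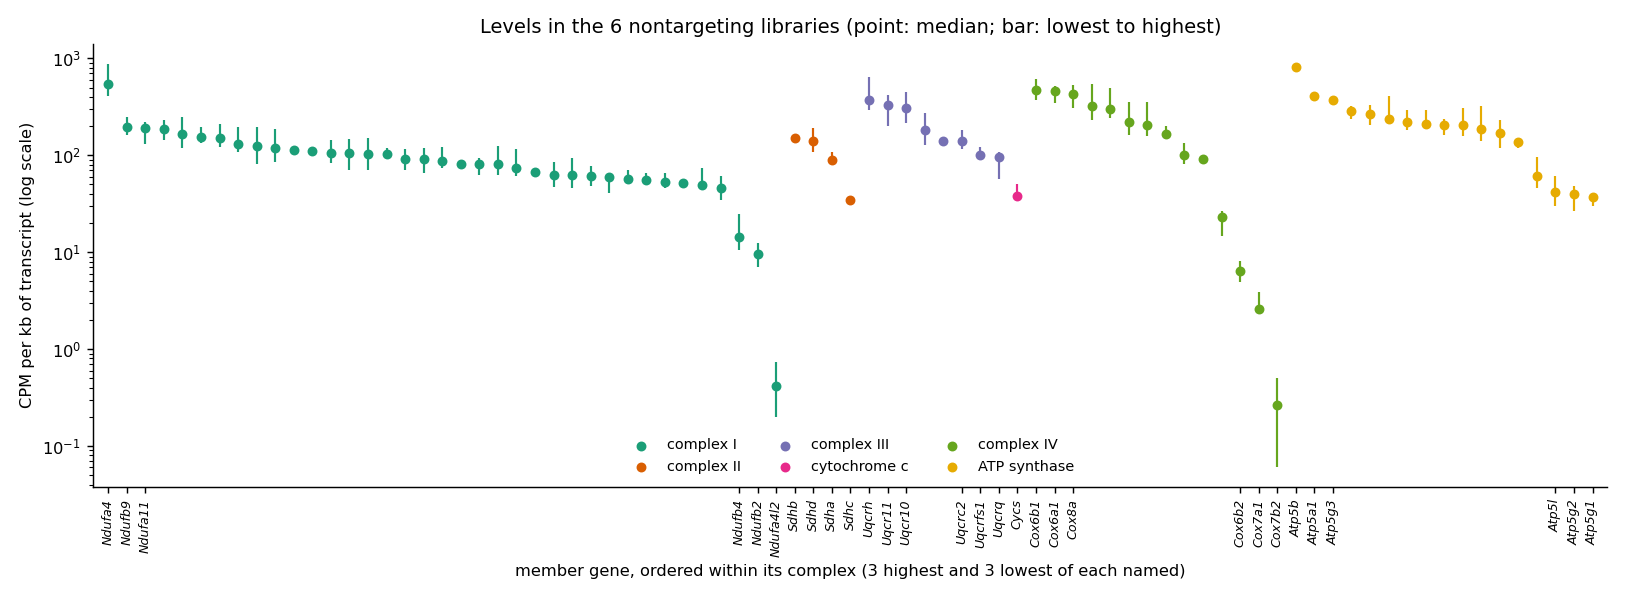
Level of each tested member with a principal transcript in the 6 nontargeting libraries, as CPM per kb on a log scale (points are medians, bars run from the lowest to the highest library), ordered within its complex, with the 3 highest and 3 lowest of each complex named. Atp5b is highest at 821 CPM per kb, and Cox7b2 at 0.268 and Ndufa4l2 at 0.416 are lowest.

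Virus alone and sex were examined before the knockdowns. No member differed between the nontargeting and the no virus libraries, in males or in females, nor between the sexes with the nontargeting shRNA or without virus (edgeR's quasi-likelihood test, Benjamini-Hochberg adjustment over all genes). At an unadjusted p under 0.05 there were also 0 members in the virus comparisons and with the nontargeting shRNA, and 5 lower in males without virus, and DESeq2 called none. Those 5 stand without the share of all genes at the unadjusted threshold and are not read as a result. Of all genes 0% were called for virus in either sex, and 0.0435% between the sexes in each of those comparisons. The median log2 difference of the members between males and females was -0.18 with the nontargeting shRNA and -0.145 without virus, with 11 and 24 of 82 above 0. Ndufa1, Ndufb11 and Cox7b lie on the X chromosome. Their log2 differences, male against female, were -0.32 (SE 0.25), -0.22 (SE 0.24) and -0.34 (SE 0.32) with the nontargeting shRNA, and none passed the test.

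Each library was then summarised by the median, over the 82 tested members, of its log2 CPM minus the mean of the nontargeting libraries of its sex. The nontargeting replicates spread more in females than in males. They were at 0.29, -0.42 and 0.11 for replicates 1, 2 and 3 in females, and at 0.09, 0.02 and -0.13 in males. Replicate 2 was the lowest of the 3 female libraries in the no virus group (-0.27), with the nontargeting shRNA and in each knockdown but Kmt2c. In the nontargeting females the coefficient of variation over 3 libraries ran from 0.64% to 40.1% across 77 members with at least 10 CPM, with a median of 25%, against a median of 8.8% in males. Shorter transcripts varied more in females (Spearman rho -0.43 over those 77 members, which share their libraries) and to a lesser degree in males (rho -0.22). The same median over all genes stayed between -0.021 and 0.023 in every library.

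**Figure D2:**
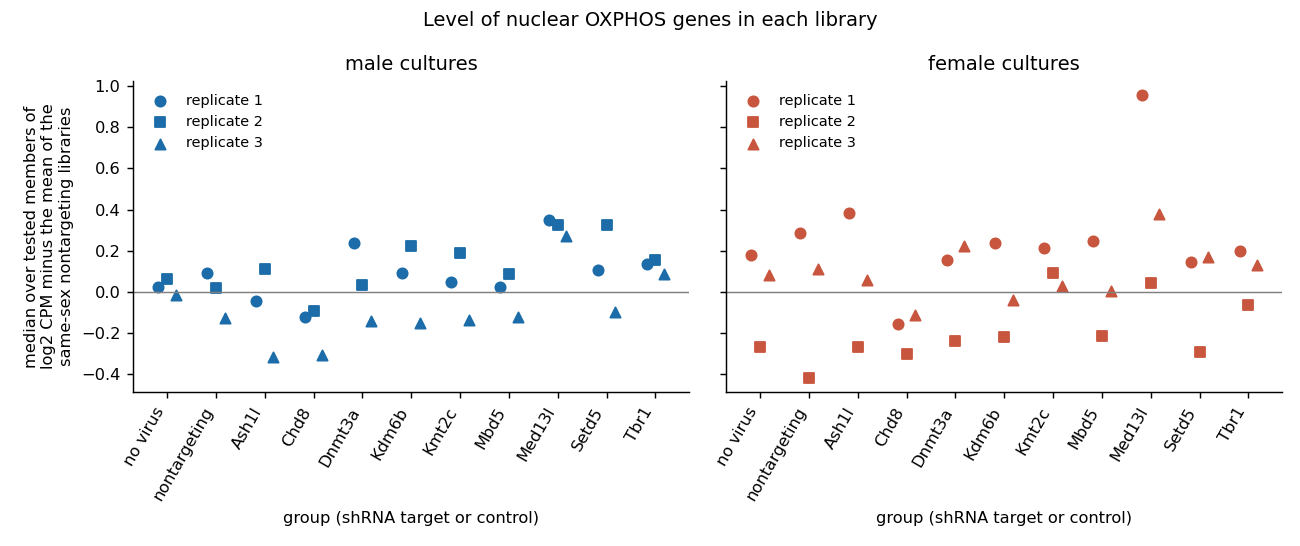
Median over 82 tested members of log2 CPM minus the mean of the nontargeting libraries of the same sex, 1 point per library, with symbols for replicates 1 to 3. The Med13l libraries lie at 0.27 to 0.35 in males and at 0.04 to 0.96 in females, and all 6 Chd8 libraries lie below 0.

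Depletion of Med13l, a subunit of the kinase module of the Mediator complex, was followed by higher levels of OXPHOS genes in both sexes. In males 7 of 82 members rose and 1 fell, and in females 25 rose and 1 fell (edgeR's quasi-likelihood test, adjusted p below 0.05 over all 16084 genes). Of all genes 3.48% were called higher and 4.77% lower in males, and 5.1% higher and 5.35% lower in females. The median log2 fold change of the members was 0.32 in males, with 75 of 82 above 0, and 0.47 in females, with 79 of 82 above 0, while the median of all genes tested was 0.005 and 0.010. With the replicate number as a block, which paired the female libraries, 59 members rose and 2 fell in females, where 14.5% of all genes were called higher and 13.6% lower. The count in females also rested on single libraries. It was 6 without Med13l replicate 1 and 47 without Med13l replicate 2, and 9 and 17 without nontargeting replicates 2 and 3, with both directions counted. In males it was 4 or 5 without any of the 6 libraries. With each sex fitted separately the order of the sexes turned, with 25 members called in males and 7 in females. The larger count in females is therefore not read as a stronger response. In bulk RNA, a change in the share of a cell type and a change of RNA per cell cannot be told apart.

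Of complex I, 4 members rose in males and 11 in females, and none fell. All 4 of the males were among the 11. Ndufs3, a core subunit, had 80.5, 82.3 and 79.0 CPM in Med13l males against 59.5, 58.1 and 53.6. Ndufb10, an accessory subunit of the membrane arm, had 111, 115 and 109 CPM against 84.2, 83.1 and 86.4. Ndufa8, also accessory, had 120, 121 and 120 CPM against 90.7, 84.2 and 85.7. None of these 3 overlapped between the male groups. Their log2 fold changes were 0.50, 0.40 and 0.47 in males (edgeR adjusted p = 0.021, 0.010 and 0.0036) and 0.59, 0.69 and 0.69 in females. In females Ndufa8 had 171, 144 and 134 CPM against 101, 91.5 and 85.6, without overlap.

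Complex II oxidises succinate and is encoded by nuclear genes alone. Its iron-sulfur subunit Sdhb had 214, 217 and 230 CPM in Med13l males against 172, 170 and 173 (log2 fold change 0.36, SE 0.11, edgeR adjusted p = 0.028), and 291, 241 and 229 against 187, 162 and 174 in females (0.54, edgeR adjusted p = 0.00042). Both sexes showed every Med13l library above every nontargeting one, but the male call was lost in 7 of 12 alternatives (adjusted p up to 0.126). Sdhc, a membrane anchor, rose in females (0.485, edgeR adjusted p = 0.0067) and had 0.365 in males (edgeR adjusted p = 0.057). Sdha, the flavoprotein, had 0.12 in males and 0.18 in females and passed in neither.

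In complex III the core protein Uqcrc1 rose in both sexes. It had 298, 307 and 324 CPM in Med13l males against 234, 233 and 251.2, and 360, 320 and 299 against 249, 229 and 228 in females. The log2 fold changes were 0.37 and 0.47 (edgeR adjusted p = 0.039 and 0.0055), and the groups did not overlap. The male call was lost in 7 of 12 alternatives, among them without any 1 of the 6 libraries (adjusted p up to 0.153). Uqcrfs1, the Rieske iron-sulfur protein, rose in females (0.43, edgeR adjusted p = 0.028) and had 0.35 in males (edgeR adjusted p = 0.10). Cycs, the electron carrier between complexes III and IV, rose in females, with 271, 165 and 210 CPM against 157, 106 and 137 (0.69, edgeR adjusted p = 0.012), and had 0.46 in males (edgeR adjusted p = 0.13).

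Among the 17 ATP synthase members, 1 rose in males and 7 in females, and all 17 had a positive log2 fold change in each sex. Atp5g3, a gene of the c-ring, had 332, 360 and 340 CPM in Med13l males against 280, 266 and 249, and 400, 360 and 375 against 287, 264 and 266 in females (log2 fold changes 0.375 and 0.47, edgeR adjusted p = 0.034 and 0.0047). The groups did not overlap, and the male call was lost in 8 of 12 alternatives (adjusted p up to 0.164). Its paralogs Atp5g1 and Atp5g2 rose in females, by 0.51 and 0.665 on the log2 scale (edgeR adjusted p = 0.025 and 0.031), and had 0.28 and 0.27 in males. Atp5b rose in females from 1634, 1569 and 1595 CPM to 2154, 1955 and 2070 (0.365, edgeR adjusted p = 0.019).

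Complex IV held calls in both directions. Its median was the lowest of the complexes, at 0.10 in males and 0.30 in females, and it held the only member that fell in both sexes. Cox7a2, the widely expressed isoform of a small subunit at the surface of complex IV, had 82.0, 93.1 and 87.1 CPM in Med13l males against 209, 187 and 175 with the nontargeting shRNA and 200, 200 and 197 without virus. In females it had 156, 102 and 126 CPM against 325, 159 and 270. All Med13l libraries were below all nontargeting libraries of their sex, although the nontargeting female replicate 2 lay near the highest Med13l library. Cox7a2 thus had a log2 fold change of -1.12 in males (SE 0.27, edgeR adjusted p = 0.0049) and -0.975 in females (SE 0.27, edgeR adjusted p = 0.013). No other knockdown moved Cox7a2 past the test, with log2 fold changes from -0.19 to 0.305 (the other 8 comparisons per sex share the nontargeting libraries with this one). The muscle isoform Cox6a2 had 6.18, 9.24 and 3.50 CPM in Med13l males against 17.8, 15.1 and 18.2 (-1.44, edgeR adjusted p = 0.069). It did not overlap in males, and it fell with the replicate block in females (adjusted p = 0.013). Cox5a and Cox5b rose in females, at 0.62 and 0.63 on the log2 scale (edgeR adjusted p = 0.0012 and 0.0022), with 0.31 for each in males. Cox8a and Cox6a1 had 0.04 and 0.07 in males and 0.12 and 0.22 in females.

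**Figure D3:**
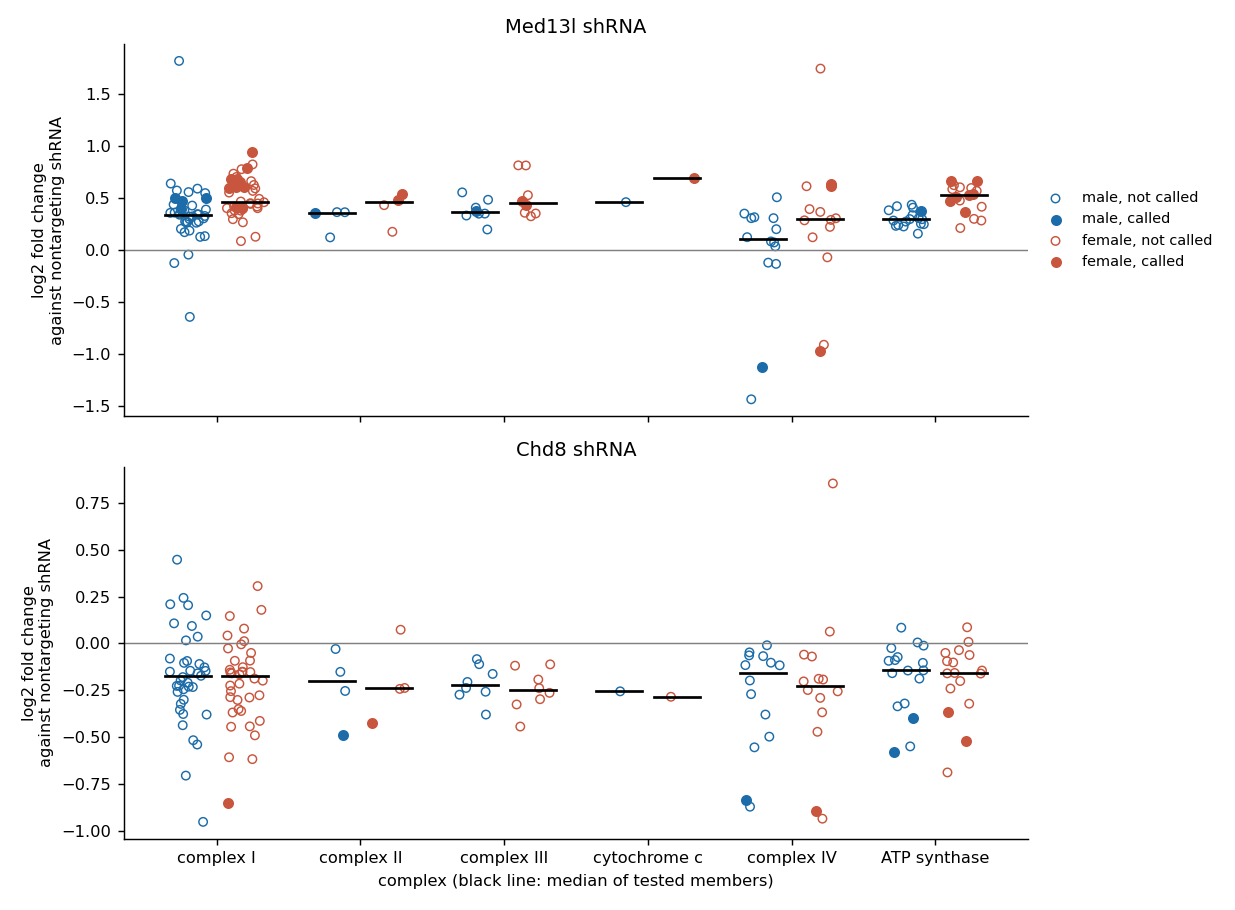
Log2 fold change of every tested member against the nontargeting libraries of the same sex after Med13l (top) and Chd8 depletion (bottom), by complex. Filled points passed edgeR's test over all genes and black lines are medians. With Med13l shRNA the medians lie above 0 in every complex and Cox7a2 at -1.12 and -0.975 is the filled point below 0, and with Chd8 shRNA every median lies below 0.

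Members that passed the test were the more precisely measured ones. The 8 members called in Med13l males had a median SE of 0.11, and the 74 that were not called had 0.22. Of those 74 members, 14 had a larger absolute log2 fold change than the median of the called ones (0.43). Ndufv2, a flavoprotein subunit of complex I, is one of them, with 273, 250.6 and 244 CPM against 184, 170 and 137 in males (0.64, SE 0.32, edgeR adjusted p = 0.25). In females, where it had 595, 204 and 313 CPM against 249, 121 and 208, it passed at 0.95 (edgeR adjusted p = 0.04996). In males 61 members had every Med13l library above every nontargeting library, or 2 below, where 21.2% and 21% of all genes did so. In females, with the wider replicate spread, these were 20 above and 1 below, where 10.4% and 10% of all genes did so. The log2 fold change had little relation to transcript length across 81 members (Spearman rho 0.13 in males and 0.06 in females).

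The male and the female response to Med13l depletion were compared directly. The members called higher in males were all called higher in females, which is 7 of 7 of the male list and 7 of 25 of the female list. The same overlap over all genes is not given. The spread of each gene was estimated over both sexes together, so the male and female lists are not independent. The overlap is therefore not read as an agreement between the sexes that is particular to the members. No member differed between the sexes by the interaction test (0 at an unadjusted p under 0.05 as well, and 0 by DESeq2). Of all genes 0% were called. The member with the smallest adjusted p was Ndufb10, with a log2 difference of -0.29, male minus female. The median difference of the members was -0.17, with 5 of 82 above 0. For the other 8 targets the interaction called no member either, where 0.0187% of all genes were called for Setd5 and 0% for the rest. At an unadjusted p under 0.05 it held 2 members for Setd5 and 0 for the rest. The share of all genes at that unadjusted threshold is not given.

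**Figure D4:**
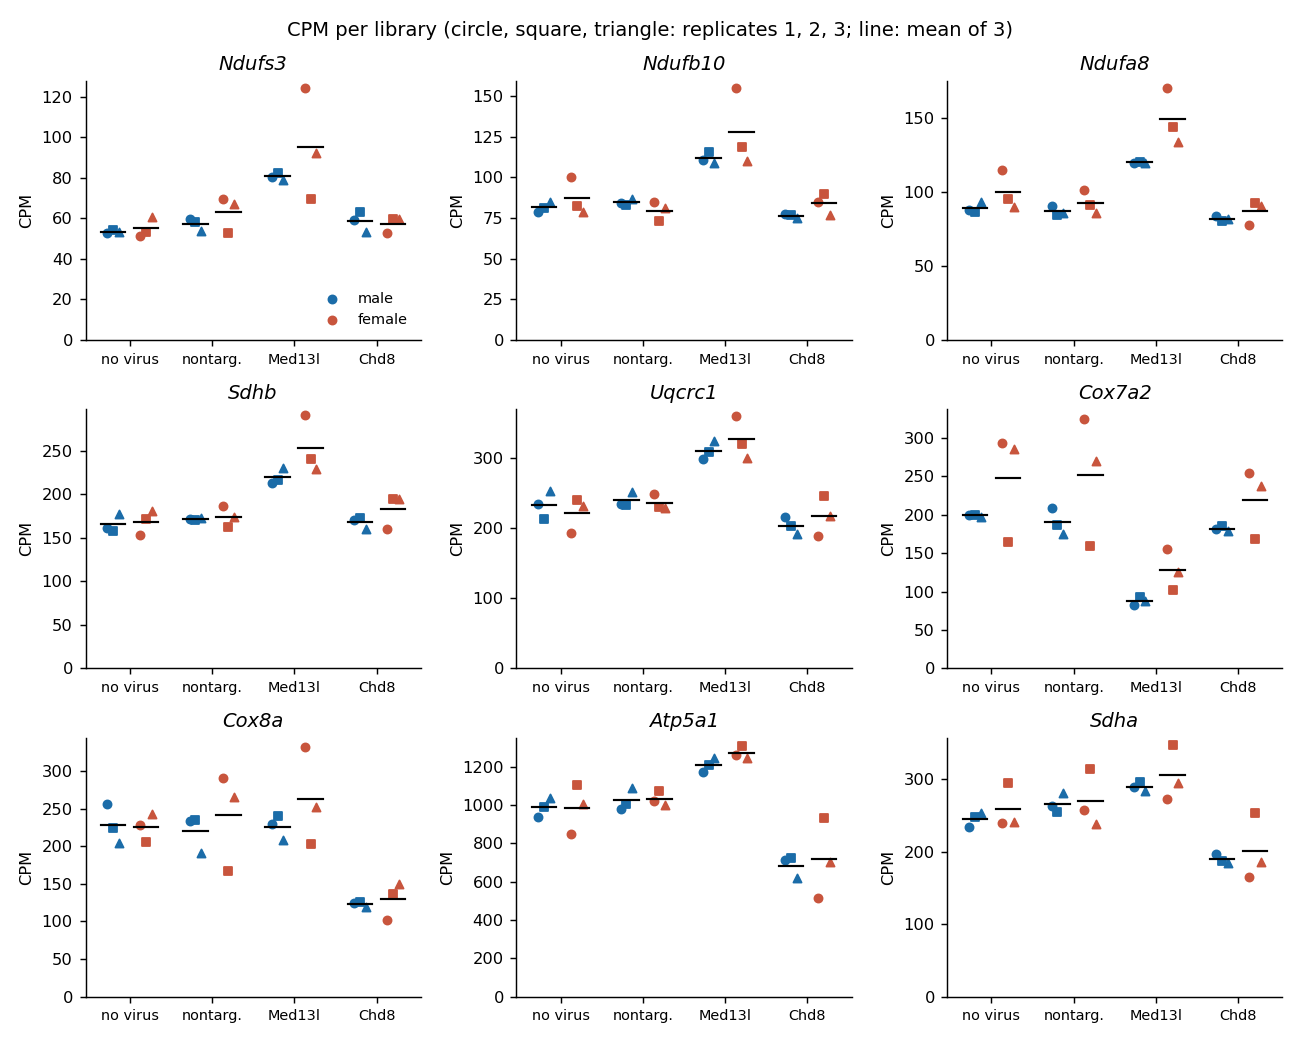
CPM of 9 members in each library of the no virus, nontargeting, Med13l and Chd8 groups, in males (blue) and females (red), with the mean of 3 as a line and axes from 0. Ndufs3, Ndufb10, Ndufa8, Sdhb and Uqcrc1 have their highest means with Med13l shRNA and Cox7a2 its lowest, and Cox8a, Atp5a1 and Sdha have their lowest means with Chd8 shRNA.

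Depletion of Chd8, which encodes a chromodomain helicase that remodels chromatin, went with lower levels. In males 4 of 82 members fell and in females 5, and none rose (edgeR, adjusted over all genes). Of all genes 6.04% were called lower and 3.83% higher in males, and 5.92% lower and 3.48% higher in females, so the share of members called lower was near the background. The median log2 fold change was -0.17 in males and -0.20 in females, with 11 of 82 above 0 in each sex, against 0.008 and 0.005 for all genes tested. In males 31 members had every Chd8 library below every nontargeting library, where 20% of all genes did, and in females 6, where 11.2% did. With the replicate block, which paired the libraries in both sexes, 16 members fell and 1 rose in males, where 12.2% and 10.1% of all genes were called, and 15 fell in females, where 11.8% were called lower and 9.26% higher. Without Chd8 female replicate 1 none was called in females, and 3 were called without nontargeting female replicate 1 or 3.

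The 4 members that fell in both sexes were Cox8a, Atp5a1, Sdha and Atp5g3. Cox8a, the widely expressed isoform of the smallest complex IV subunits, had 124, 126 and 119 CPM in Chd8 males against 234, 235 and 191, and 102, 136 and 150 against 290, 168 and 265 in females. The groups did not overlap in either sex. Cox8a had a log2 fold change of -0.84 in males (SE 0.20, edgeR adjusted p = 0.0039) and -0.90 in females (SE 0.20, edgeR adjusted p = 0.0020). Atp5a1, the alpha subunit of ATP synthase, had 713, 722 and 617 CPM against 980, 1004 and 1088 in males (-0.58, edgeR adjusted p = 0.00047), and 515, 935 and 705 against 1023, 1074 and 1000 in females (-0.52, edgeR adjusted p = 0.0018). It did not overlap, and the Chd8 females spread widely.

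Sdha, the catalytic subunit of complex II, had 198, 188 and 184 CPM in Chd8 males against 264, 255 and 281, and 165, 253 and 186 against 258, 315 and 239 in females. The female groups overlapped, since replicate 2 of the Chd8 females was above replicate 3 of the nontargeting females. Its log2 fold changes were -0.49 and -0.425 (edgeR adjusted p = 0.0060 and 0.020), and the female call was lost in 6 of 12 alternatives (adjusted p up to 0.271). Atp5g3 had -0.40 and -0.37 (edgeR adjusted p = 0.019 and 0.034). Its call was lost in 5 of 12 alternatives in males and in 8 of 12 in females, where it had -0.14 against the no virus libraries (adjusted p = 0.523). Ndufb3, an accessory complex I subunit, fell in females (-0.85, edgeR adjusted p = 0.045) and had -0.71 in males (edgeR adjusted p = 0.11). Sdhb and Uqcrc1, which rose with Med13l depletion, had -0.03 and -0.24 in Chd8 males and 0.07 and -0.12 in Chd8 females, and neither passed. The difference between the Chd8 and the Med13l response was not tested, and both share the nontargeting libraries.

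The promoters of members that moved were read from RefSeq (GRCm38.p6), from 250 bases before to 50 after the annotated start, and are shown to let the letters be seen beside the changes. The table matched 69 of the member genes, with 74 promoters. Motifs were searched on both strands. NRF1 and the ETS family factor GABP (whose DNA-binding subunit is Gabpa) are known activators of nuclear OXPHOS genes. The NRF1-like word, GCGC followed by any base and TGCGC, was found in 18 of the 74 member promoters (24.3%), against 4.6% of all 32851 promoters, and the ETS-like word CCGGAAG in 17 (23.0%), against 8.86%. Both words are rich in G and C, and no account was taken of base composition. Among the 21 members with a promoter that rose in Med13l females, 7 held the NRF1-like and 3 the ETS-like word, and among the 47 other tested members with a promoter 10 and 14 did. A match describes letters and not a bound site.

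The following 300 bases come from members that rose with Med13l depletion (Ndufa8, chr2:36049289-36049588, minus strand, Uqcrc1, chr9:108936398-108936697, plus strand, and Sdhb, chr4:140961021-140961320, plus strand), from the one that fell (Cox7a2, chr9:79759804-79760103, minus strand), and from members that fell with Chd8 depletion (Cox8a, chr19:7217567-7217866, minus strand, and Sdha, chr13:74350191-74350490, minus strand). They are written 5′ to 3′, and capitals mark NRF1-like matches in Ndufa8, Uqcrc1 and Sdha and ETS-like matches, on either strand, in Sdhb and Cox8a.
Ndufa8: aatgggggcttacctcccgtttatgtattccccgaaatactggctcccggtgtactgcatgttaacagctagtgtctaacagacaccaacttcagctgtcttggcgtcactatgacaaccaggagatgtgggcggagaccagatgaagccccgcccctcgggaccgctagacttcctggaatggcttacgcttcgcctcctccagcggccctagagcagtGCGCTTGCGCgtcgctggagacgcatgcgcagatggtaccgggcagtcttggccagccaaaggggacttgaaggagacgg
Uqcrc1: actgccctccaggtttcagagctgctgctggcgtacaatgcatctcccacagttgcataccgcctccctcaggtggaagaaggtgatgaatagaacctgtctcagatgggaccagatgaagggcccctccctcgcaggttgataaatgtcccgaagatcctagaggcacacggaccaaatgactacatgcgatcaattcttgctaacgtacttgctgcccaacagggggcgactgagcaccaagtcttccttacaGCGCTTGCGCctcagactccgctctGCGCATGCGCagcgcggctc
Sdhb: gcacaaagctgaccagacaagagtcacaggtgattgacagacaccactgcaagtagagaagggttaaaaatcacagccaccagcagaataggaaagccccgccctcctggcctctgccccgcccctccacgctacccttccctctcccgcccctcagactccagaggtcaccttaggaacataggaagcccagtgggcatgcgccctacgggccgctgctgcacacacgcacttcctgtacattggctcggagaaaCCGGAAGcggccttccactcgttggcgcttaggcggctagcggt
Cox7a2: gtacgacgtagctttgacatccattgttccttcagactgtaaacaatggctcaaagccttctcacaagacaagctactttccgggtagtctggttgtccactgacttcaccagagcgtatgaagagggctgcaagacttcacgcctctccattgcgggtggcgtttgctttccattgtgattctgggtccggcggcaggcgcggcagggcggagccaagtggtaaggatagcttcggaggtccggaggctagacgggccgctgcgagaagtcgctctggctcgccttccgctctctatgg
Cox8a: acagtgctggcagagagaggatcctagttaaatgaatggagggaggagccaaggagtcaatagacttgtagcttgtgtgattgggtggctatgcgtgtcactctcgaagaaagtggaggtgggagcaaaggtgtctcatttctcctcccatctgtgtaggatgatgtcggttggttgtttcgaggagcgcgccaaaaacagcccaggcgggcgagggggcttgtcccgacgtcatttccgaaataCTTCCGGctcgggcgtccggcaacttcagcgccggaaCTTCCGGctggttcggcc
Sdha: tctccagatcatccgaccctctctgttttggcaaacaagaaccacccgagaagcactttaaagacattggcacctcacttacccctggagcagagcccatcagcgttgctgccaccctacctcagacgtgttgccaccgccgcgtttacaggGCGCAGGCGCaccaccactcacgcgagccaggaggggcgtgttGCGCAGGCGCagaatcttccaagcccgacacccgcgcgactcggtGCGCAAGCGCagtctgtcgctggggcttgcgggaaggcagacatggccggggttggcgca
Ndufa8 held 1 NRF1-like match, Uqcrc1 held 2 and Sdha 3, while Sdhb held 1 ETS-like match and Cox8a 2. Neither word was in the Cox7a2 window.

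The other 7 targets called no member in either sex. At an unadjusted p under 0.05 the counts were 5 lower for Ash1l in males and 1 lower in females, 4 higher for Tbr1 in males and 2 higher in females, 1 higher and 7 lower for Setd5 in females, and at most 3 in any other comparison. The share of all genes at that unadjusted threshold is not given, so these counts are not read as a result. The shares that follow are for adjusted p. DESeq2 called 2 lower for Ash1l in males, where it called 1.88% of all genes lower, and 0 in the rest. Of all genes 2.01% were called for Ash1l in males and 1.09% in females, and 3.19% for Setd5 in females. The share was 0.056% for Setd5 in males, 0.218% and 0.0435% for Tbr1 in males and females, 0.112% for Dnmt3a in each sex, 0.0933% and 0% for Kdm6b, 0.0808% and 0.106% for Kmt2c, and 0.0622% for Mbd5 in each sex. The median log2 fold changes of the members ran from -0.075 for Ash1l males to 0.14 for Setd5 males. Tbr1 males had a median of 0.13 with 70 of 82 members above 0, and 20 members above every nontargeting library, where 8.36% of all genes were. Setd5 males had 17 such members, where 6.25% of all genes were, and this group holds the library with undiminished Setd5.

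Atp5d, the delta subunit in the central stalk of ATP synthase, came closest among these. It had 123, 139 and 98.2 CPM in Ash1l males against 200, 192 and 198 (log2 fold change -0.71, SE 0.20, edgeR adjusted p = 0.051), without overlap. In Ash1l females it had 101, 167 and 102 CPM against 168, 190 and 192, also without overlap (-0.57, edgeR adjusted p = 0.25). With the replicate block, which paired the Ash1l and Setd5 females, Atp5d fell in Ash1l females (adjusted p = 0.0006) while Ndufa10 rose (adjusted p = 0.031), where 2.77% of all genes were called lower and 1.69% higher. In Setd5 females the block gave 4 members higher (Ndufa10, Ndufb5, Ndufv2 and Sdha) and 2 lower (Ndufa11 and Uqcr10), where 5.51% and 7.47% of all genes were called.

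The 13 OXPHOS genes of mitochondrial DNA were not called in any knockdown, but their summed level spread widely between female libraries. It ran from 41370 to 76350 CPM with the nontargeting shRNA, from 42280 to 82310 with Med13l shRNA and from 37800 to 180500 without virus. The lack of calls is therefore not read as unchanged levels. Median log2 fold changes of the 13 genes after Med13l depletion were 0.08 in males and 0.13 in females, and after Chd8 depletion 0.13 and -0.195. COX1 was at 16660 CPM and CYTB at 9242 CPM in the nontargeting males, while ND3, ND4L, COX2, COX3, ATP6 and ATP8 were at 4.35 CPM or less. The values of those 6 genes rest on few counts, although they come from the same genome. The log2 fold changes of COX1 were 0.08 and 0.10 with Med13l shRNA and -0.03 and -0.33 with Chd8 shRNA, in males and females.

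Related lists are read against the shares of all genes called, 3.48% higher and 4.77% lower in Med13l males, 5.1% and 5.35% in Med13l females, 3.83% and 6.04% in Chd8 males and 3.48% and 5.92% in Chd8 females. Of 6 tested subunit genes outside the symbol rule, 1 rose in Med13l males and 4 in females. Cyc1, the cytochrome c1 subunit of complex III, rose from 208 ± 3.91 CPM (SD, n = 3) to 294 ± 5.86 in males (log2 fold change 0.50, edgeR adjusted p = 0.012) and by 0.61 in females (edgeR adjusted p = 0.0013). Higd1a and Higd2a, small proteins that join complex IV or its supercomplexes, rose in females by 1.08 and 0.51.

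Of 47 assembly factors tested, 6 rose in Med13l males and 11 in females, and none fell. Ecsit, a complex I assembly factor, went from 38.7 ± 0.37 to 55.0 ± 1.45 CPM in males (0.51, edgeR adjusted p = 0.0024) and Ndufaf7, a methyltransferase of complex I assembly, from 35.3 ± 1.87 to 49.6 ± 4.11 CPM (0.49, edgeR adjusted p = 0.0065). Taco1, which aids translation of the mitochondrial COX1 mRNA, rose by 0.52 in males (edgeR adjusted p = 0.022). In Chd8 libraries 5 factors fell in males, and 4 fell and 3 rose in females. Ndufaf7 was among the latter (0.37, edgeR adjusted p = 0.041). In Ash1l males 3 factors fell, among them Ecsit (-0.50, edgeR adjusted p = 0.0081).

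Of 9 ADP/ATP carriers, porins and related genes, 1 rose in Med13l males and 3 in females. Slc25a5, which exchanges ADP and ATP across the inner membrane, rose from 157 ± 6.07 to 218 ± 4.91 CPM in males (0.47, edgeR adjusted p = 0.011) and by 0.63 in females, and Slc25a4 rose by 0.41 in females. Vdac1, the porin of the outer membrane, rose by 0.43 in Med13l females (edgeR adjusted p = 0.012), and fell in the Chd8 groups, by 0.69 in males and 0.66 in females on the log2 scale (edgeR adjusted p = 4.2e-05 and 7.5e-05).

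Enzymes upstream of the chain were called in both directions. Of 17 genes of the tricarboxylic acid cycle and pyruvate dehydrogenase, 2 rose and 1 fell in Med13l males, and 5 rose and 1 fell in females. Suclg1, a subunit of succinyl-CoA ligase, rose by 0.495 in Med13l females, and Idh3g, a regulatory subunit of isocitrate dehydrogenase, fell in both sexes (-0.42 and -0.32, edgeR adjusted p = 0.0034 and 0.029). In the Chd8 groups 4 fell in males and 1 in females, the latter near the background share. Mdh2, mitochondrial malate dehydrogenase, fell from 341 ± 23.2 to 174 ± 10.9 CPM in males (-0.97, edgeR adjusted p = 0.00062) and by 0.84 in females (edgeR adjusted p = 0.0037).

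Of 17 glycolytic genes, 7 fell in each sex after Chd8 depletion, with list medians of -0.60 in males and -0.61 in females. Hk1, the hexokinase that opens glycolysis in neurons, fell from 440 ± 49.9 to 153 ± 13.1 CPM in males (-1.53, edgeR adjusted p = 8.9e-07) and by 1.36 in females (edgeR adjusted p = 9.7e-06). Eno2, neuronal enolase, fell by 0.68 and 0.60. After Med13l depletion 5 rose in females, and 1 rose and 1 fell in males. Tpi1, triosephosphate isomerase, rose in both sexes, by 0.74 and 1.15 (edgeR adjusted p = 0.037 and 0.00059).

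**Figure D5:**
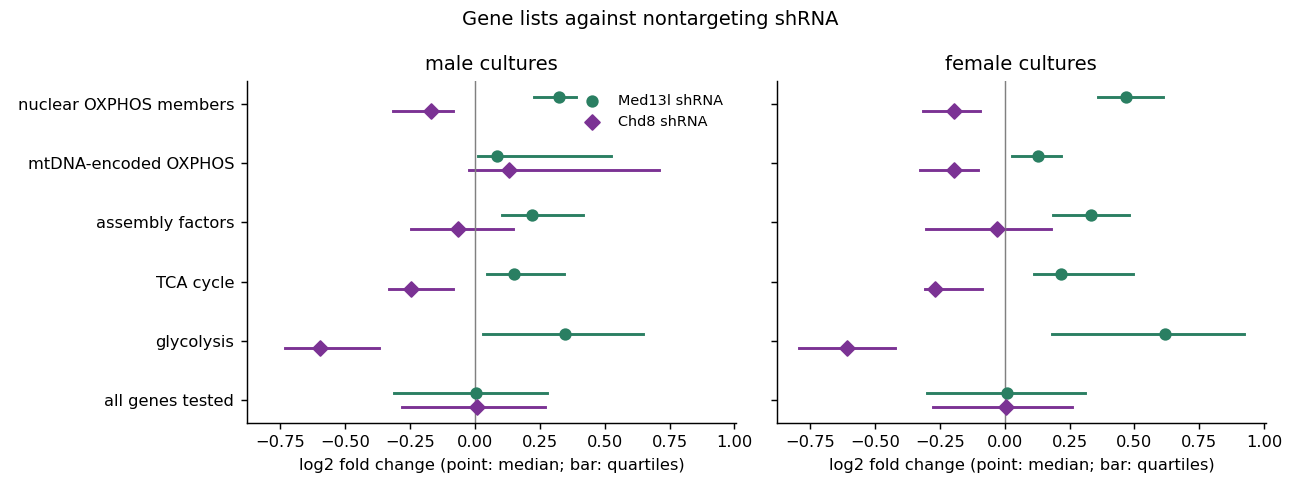
Median (point) and quartiles (bar) of log2 fold changes against the nontargeting libraries for the members, 4 related gene lists and all genes tested, after Med13l and Chd8 depletion in each sex. The members' median is 0.32 and 0.47 with Med13l shRNA and -0.17 and -0.20 with Chd8 shRNA, glycolysis is at -0.60 and -0.61 with Chd8 shRNA, and the genes of mitochondrial DNA lie between -0.195 and 0.13.

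Of 16 regulators of mitochondrial genes, Tfb2m was the 1 that passed the test after Med13l depletion, where 4.77% and 5.35% of all genes were called lower. The sum of the 16 was 487 to 519 CPM in Med13l males against 551 to 588 with the nontargeting shRNA. In females it overlapped, at 420 to 548 against 480 to 591 CPM. Tfb2m, a factor that starts transcription of mitochondrial DNA, fell from 11.04 ± 1.74 to 4.24 ± 1.10 CPM in males (-1.385, edgeR adjusted p = 3.5e-07) and from 11.9 ± 0.386 to 4.26 ± 0.86 CPM in females (-1.47, edgeR adjusted p = 9.3e-08). The coactivator Ppargc1a had -0.48 and -0.41 and Nrf1 had -0.08 and -0.07, and neither passed. In Chd8 groups Gabpa, named above for its motif, rose from 25.9 ± 0.87 to 42.7 ± 5.10 CPM in males (0.72, edgeR adjusted p = 0.00099) and by 0.77 in females, and Yy1 fell in males (-0.56, edgeR adjusted p = 0.0097).

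Markers of cell types were summed in the same groups. The sum of 8 astrocyte markers was 274 to 403 CPM in Med13l males and 261 to 339 in Med13l females, and 231 to 346 and 254 to 268 in the Chd8 groups, against 322 to 389 and 331 to 489 with the nontargeting shRNA. The sum of 11 neuronal markers was 5346 to 5847 and 5136 to 5897 CPM with Med13l shRNA and 5355 to 6118 and 5283 to 5869 with Chd8 shRNA. Calls in these lists included Gad1, which fell in Med13l males (-0.74), and Gad2, which fell in both Chd8 groups. These are not all the calls, and Tbr1, Slc17a6 and Slc1a2 were among the others over the knockdown comparisons. Among 6 markers of dividing cells Top2a fell in Med13l males, while their sum was higher there, at 70.6 to 79.1 CPM against 44.1 to 54.7. In females the sum was 52.8 to 115.4 CPM with Med13l shRNA against 35.8 to 75.7. With Chd8 shRNA it was 56.4 to 60.8 CPM in males and 46.96 to 84.4 in females. Pcna made up most of this sum, with 32.65 to 68.1 CPM in the nontargeting libraries, where the other 5 had medians of 0.124 to 2.28 CPM. Endothelial and mural markers summed to 13.4 to 22.6 CPM in Med13l males and 12.6 to 18.7 in Chd8 males against 23.4 to 26.8, and overlapped in females, with 14.9 to 38.9 and 10.4 to 29.2 against 22.1 to 39.99. Meningeal fibroblast markers summed to 17.6 to 25.3 and 13.1 to 13.98 CPM against 19.97 to 37.8 in males, and to 15.8 to 34.9 and 8.97 to 17.6 against 19.5 to 52.1 in females. Single genes weighed most in these sums too. By nontargeting medians, Rgs5 had 21.5 CPM and the other endothelial and mural markers at most 2.11. Dcn had 25.8 CPM and the other fibroblast markers at most 3.71, and Slc1a2 had 249 CPM and the other astrocyte markers at most 61.75. Oligodendrocyte lineage markers summed to 35.3 to 51.0 CPM over these groups, and Sox10, P2ry12, Tmem119 and Itgam had a median of 0 in the nontargeting libraries. The part of these shifts in the changes of OXPHOS genes was not tested.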

How the data were processed

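RNA-seq counts per gene symbol were deposited by the authors as 1 table of whole-number counts, 48716 rows in all. Reads were handled with STAR and featureCounts on the mm10 build, per the submitters' processing notes, and the annotation release is not given in the sources used here. Rows with no symbol (18483, holding 0.69% to 1.41% of the counts per library), 71 copied rows and 6 columns that belong to no sample used here were left out, and 141 rows that repeat a symbol were summed with it. Low counts were even more often than odd (26.7% odd among values from 1 to 20, against 49.1% at 1000 or above).

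Counts were fitted with edgeR 4.0.16 (quasi-likelihood test, TMM scaling, low counts filtered by group, 1 mean for each of 22 groups over 66 libraries) in R 4.3.3, with Benjamini-Hochberg adjustment over 16084 genes per comparison and a threshold of 0.05. Log2 CPM values used a prior count of 2. The method was tested on simulated data, which held no shift shared by same-numbered libraries. That test therefore does not cover such shifts. Replicate pairs differed by more than counting noise (chi-square per gene of 7.93 or above). Same-numbered libraries deviated together (correlation over 0.1 in every pair) in 16 of 20 comparisons with the nontargeting libraries. The exceptions were Ash1l, Kdm6b and Med13l males and Kdm6b females. This cut divides groups with close values. Med13l males had 0.138, 0.019 and 0.122, and Chd8 males, counted as paired, had 0.159, 0.123 and 0.136. Alternatives were DESeq2 1.42.0, no low-count filter, the replicate block alone or with GC and length offsets, each sex alone, the no virus group as control, and leaving out each library.

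The members and lists were chosen with earlier results of these data known. Genes named are those called in at least 2 knockdown comparisons, those with the largest change among calls, the smallest p and the highest and lowest level in each complex, isoforms, calls for virus or sex, and up to 3 per related list. Others, such as Atp5d, Ndufv2 and the further members called in Med13l females, were named after their values were seen. The results of 1 member are not reported here.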

Additional observations from a re-analysis of the deposited data

How the results depend on the processing

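The members' median stayed positive after Med13l depletion (0.235 to 0.374 in males and 0.209 to 0.642 in females) and negative after Chd8 depletion (-0.221 to -0.103 and -0.365 to -0.063) under every alternative run, while the counts of members called moved. The cause of these moves was not tested. Separate fits and left-out libraries use fewer samples, and separate fits also take the spread from 1 sex alone. Among the alternatives, shares of all genes called are given above for DESeq2 in Ash1l males. For the replicate block they are given for Chd8 males and for Ash1l, Chd8, Med13l and Setd5 females. The other counts here stand without that share, so whether they exceed it cannot be told. With DESeq2, 2 members were called for Ash1l males. Without the low-count filter 5 were called for Med13l males and 2 for Chd8 females. With each sex fitted separately the count was 2 for Ash1l males, 11 for Chd8 males, 25 for Med13l males, 2 for Chd8 females and 7 for Med13l females. With the replicate block it was 17 for Chd8 males, 2 for Ash1l females, 15 for Chd8 females, 61 for Med13l females and 6 for Setd5 females, where the numbers paired the libraries. In groups with a pair at a correlation of 0.1 or less, the block gave 3 for Ash1l males, 1 for Kdm6b males and 37 for Med13l males. In each of these 2 of 3 libraries correlated best with their own number, as in Kdm6b females. In the remaining comparisons with the nontargeting libraries the block changed no count. The replicate block with GC content and length offsets gave 6 for Ash1l, 28 for Chd8, 28 for Med13l, 1 for Setd5 and 1 for Tbr1 in males, and 3 for Ash1l, 19 for Chd8, 1 for Dnmt3a, 53 for Med13l and 16 for Setd5 in females. Leaving out 1 library at a time gave 4 to 5 for Med13l males, 6 to 47 for Med13l females, 0 to 5 for Chd8 females, 0 to 1 for Ash1l females (1 without Ash1l female replicate 2) and 0 to 3 for Setd5 females (3 without Setd5 female replicate 2). Among 29 member values that passed the test in the named comparisons, none changed direction under any alternative. All 29 passed with DESeq2 and with both block fits, 20 with each sex fitted separately, 21 without the filter, 26 with the no virus libraries as control, and 121 of 174 with 1 library left out. Calls lost in at least 5 of 12 alternatives were those of Atp5g3, Uqcrc1, Sdhb and Ndufs3 in Med13l males, Atp5b and Atp5g1 in Med13l females, Atp5g3 in both Chd8 groups and Sdha in Chd8 females. With 3 libraries a group, members not called in Med13l males had a median SE of 0.224, against 0.114 for those called.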
